A study of Mus musculus with 8 samples.

Results

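The genes described here are the acute-phase orosomucoids Orm1, Orm2 and Orm3, the inter-alpha-trypsin inhibitor heavy chains Itih2, Itih3, Itih4 and Itih5, and the further acute-phase genes Saa3, Hp and Lcn2. They were read on microarrays from the thoracic aorta of Fto -/- and Fto +/+ mice. Members were taken as all non-control probes assigned to a RefSeq transcript of these 10 genes, which gave 11 of the 55681 probes on the array, 1 probe a gene and 2 for Itih4. The genes were selected on earlier results of this same contrast, in which Orm3 and Itih4 were already known to differ. Their own values are therefore given as a description, with no p-value.

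Fto encodes an RNA demethylase that removes methyl groups from adenosine. The Fto -/- group held 4 samples and the Fto +/+ group 4 samples, each hybridised with the dye Cy3 to its own array. All 8 were labelled as thoracic aorta of male mice on a mixed C57BL6J/NMRI background, kept in conventional cages with a 12 h light phase and free access to food. The labels name no driver, no tissue restriction of the Fto loss and no age, and they do not say whether each sample was a separate animal.

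The labels and the data were compared before the results. The Fto probe (NM_011936) read 65.0, 70.1, 49.9 and 49.2 units of processed intensity in Fto -/- replicates 1 to 4, against 567, 751, 530 and 409 in Fto +/+ replicates 1 to 4. That is 8.47-fold lower in Fto -/-, with the smallest exact two-sided permutation p that 4 against 4 allows (0.0286). A free-text field of every sample names the opposite genotype, so the groups follow the title and the genotype label, which the Fto level fits. All samples were labelled male, yet the Xist probe was well above background on 8 of 8 arrays, while probes for Ddx3y, Kdm5d, Eif2s3y and Zfy1 were so on 0 of 8 and that for Uty on 1 Fto +/+ array. Xist read 963 to 1255 units in Fto -/- and 663 to 878 units in Fto +/+ (limma adjusted p = 0.0901). The label of sex and these probes therefore go against each other in both genotypes, and no set of arrays without this conflict exists. The 8 smooth muscle markers, among them Acta2 and Myh11, were well above background on every array. The 75th percentile of intensity per array lay between 294.9 and 374.4 units in Fto -/- and between 320.2 and 415.6 units in Fto +/+.

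Acute-phase proteins are plasma proteins whose genes are switched up or down mainly in hepatocytes when interleukin-6, interleukin-1 and glucocorticoids signal tissue injury or infection, through the factors STAT3 and C/EBP and the glucocorticoid receptor. Orosomucoids are small glycoproteins of the lipocalin family that bind lipophilic molecules and are also made by adipocytes. The heavy chains of the inter-alpha-trypsin inhibitors are secreted proteins, several of which become covalently linked to hyaluronan and steady the matrix around cells. ITIH4 differs in that it is not carried by the usual light chain, bikunin, and is itself an acute-phase protein.

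The genes lie in clusters in the RefSeq gene table of GRCm38.p6. Orm1, Orm3 and Orm2 are protein-coding neighbours in that order on chromosome 4. Itih4 and Itih3 are adjacent on chromosome 14, and Itih2 and Itih5 are adjacent on chromosome 2. Hp lies on chromosome 8, as does Fto.

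The promoters of Orm2, Orm3, Itih4 and Itih5 are shown because Orm2 and Orm3 are a close pair with higher readings in Fto -/-, and because Itih4 and Itih5 differed in opposite directions. Each is the 250 bases before the annotated start, 5′ to 3′ on the gene's strand, from RefSeq (GRCm38.p6). Capitals mark matches to the letters TTCNNNGAA (a STAT motif) or TTGCNNAA (a C/EBP motif), searched on both strands, which did not overlap each other in these windows. The windows are chr4:63362199-63362448 (+) for Orm2, chr4:63355908-63356157 (+) for Orm3, chr14:30886226-30886475 (+) for Itih4 and chr2:10153293-10153542 (+) for Itih5.
Orm2: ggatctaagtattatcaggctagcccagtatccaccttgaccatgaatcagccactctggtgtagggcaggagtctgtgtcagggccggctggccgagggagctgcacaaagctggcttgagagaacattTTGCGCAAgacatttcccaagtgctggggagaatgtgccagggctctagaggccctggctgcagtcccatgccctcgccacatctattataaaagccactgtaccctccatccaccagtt
Orm3: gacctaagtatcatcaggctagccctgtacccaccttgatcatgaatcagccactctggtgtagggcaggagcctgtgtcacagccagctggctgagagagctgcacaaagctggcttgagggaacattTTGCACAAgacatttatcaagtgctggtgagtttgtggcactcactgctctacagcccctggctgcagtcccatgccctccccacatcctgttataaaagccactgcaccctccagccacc
Itih4: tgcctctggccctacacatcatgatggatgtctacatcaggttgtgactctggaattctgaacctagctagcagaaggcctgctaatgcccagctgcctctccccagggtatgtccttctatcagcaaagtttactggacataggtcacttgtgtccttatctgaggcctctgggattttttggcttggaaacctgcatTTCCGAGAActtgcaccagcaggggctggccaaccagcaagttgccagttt
Itih5: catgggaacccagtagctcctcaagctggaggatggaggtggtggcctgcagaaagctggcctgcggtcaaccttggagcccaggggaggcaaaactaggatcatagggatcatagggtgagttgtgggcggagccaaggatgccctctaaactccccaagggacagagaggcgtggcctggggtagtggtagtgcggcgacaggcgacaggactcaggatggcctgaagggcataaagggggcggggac

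The Orm2 and Orm3 windows were identical at 219 of 245 aligned bases (89.4%), and each held 1 C/EBP match, starting 120 bases before the start of Orm2 and 121 bases before that of Orm3. The Itih4 window held 1 STAT match, 51 bases before its start, and no C/EBP match. The Itih5 window held none. Among the other members with a window, Itih2, Lcn2 and Saa3 held 1 C/EBP match each and Itih3 none, so that 6 of 8 windows held a match. Neither Orm1 nor Hp had an entry. In all 32851 windows of the table cut to the same length, 7.02% held the STAT letters, 9.56% the C/EBP letters, 0.387% a glucocorticoid receptor motif (GNACA and TGTNC parted by 3 bases of any kind) and 16.1% any of them. A match describes the letters only.

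Of the 11 probes, 10 were bright enough to be compared, meaning that at least 4 arrays, of whichever genotype, read them well above background. Only Saa3 was not. The level of a probe is the log2 of its processed intensity minus that of the array's 75th percentile, and a difference is Fto -/- minus Fto +/+ on that scale. Members past a limma adjusted p of 0.05, taken over all tested probes, numbered 4 probes of 3 genes, with Orm3 and Itih5 higher and both Itih4 probes lower in Fto -/-. Of all 25292 tested probes, 1.66% passed in either direction, 0.842% as higher and 0.814% as lower. The tested member probes had a median difference of 0.52, against -0.02 over all tested probes, and 7 were higher and 3 lower by their means. Genotypes did not overlap in 5 of these probes, against 12.1% of all tested probes. Because the members were selected on this contrast, nothing is read from these counts, signs or the median, and whether a member is past the threshold is given below as a description.

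Orm3 was higher in Fto -/- and well above background in that genotype only. Its probe (NM_013623) read 64.1, 54.7, 165 and 108 units in Fto -/- replicates 1 to 4, against 23.5, 20.2, 19.0 and 19.5 units in Fto +/+. All 4 Fto -/- arrays were well above background and 0 of 4 Fto +/+ arrays were, so the Fto +/+ level is only a bound and Orm3 was tested only because its Fto -/- arrays were bright. Set against the lowest signal that counted as above background on each Fto +/+ array, Orm3 was 2.73-fold higher in Fto -/-. That is not a strict minimum, because the signal needed differed between probes. On Fto +/+ replicate 4 the lowest such signal was 34.8 units, yet Orm1 at 42.9 units did not count. With the normexp alternative below, the Orm3 difference was only 0.72. The measured levels were -1.89 ± 0.82 in Fto -/- and -4.18 ± 0.19 in Fto +/+ (SD, n = 4 each), a fitted difference of 2.29 ± 0.36 (SE). Replicates 3 and 4 were the high Fto -/- arrays and replicates 1 and 2 the low ones.

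Orm1 (NM_008768) read 102, 162, 202 and 175 units in Fto -/- replicates 1 to 4, against 62.0, 61.3, 112 and 42.9 units in Fto +/+. Replicate 4 was the one Fto +/+ array not well above background. Replicate 3 of Fto +/+ reached above the lowest Fto -/- array, so the genotypes overlapped. The levels were -1.09 ± 0.56 in Fto -/- and -2.51 ± 0.51 in Fto +/+ (SD, n = 4 each), a 2.67-fold higher mean and a difference of 1.42 ± 0.33 (SE) that missed the threshold.

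Orm2 (NM_011016) read 96.7, 269, 305 and 218 units in Fto -/- replicates 1 to 4, against 73.2, 98.7, 123 and 56.2 units in Fto +/+. Fto -/- replicate 1 lay within the Fto +/+ range and the other Fto -/- arrays above it. The levels were -0.69 ± 0.88 in Fto -/- and -2.14 ± 0.39 in Fto +/+ (SD, n = 4 each), a 2.73-fold higher mean and a difference of 1.45 ± 0.41 (SE). It too missed the threshold. It passed when Fto -/- replicate 1 was left out (difference 1.87). That array was the lowest of its genotype, so leaving it out raises the difference by construction. In each genotype replicate 3 was the brightest array for Orm1 and for Orm2. The orosomucoids are close relatives, and how far each probe also reads its neighbours' transcripts was not tested, so the genes are not certain to be separate measurements.

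**Figure D1:**
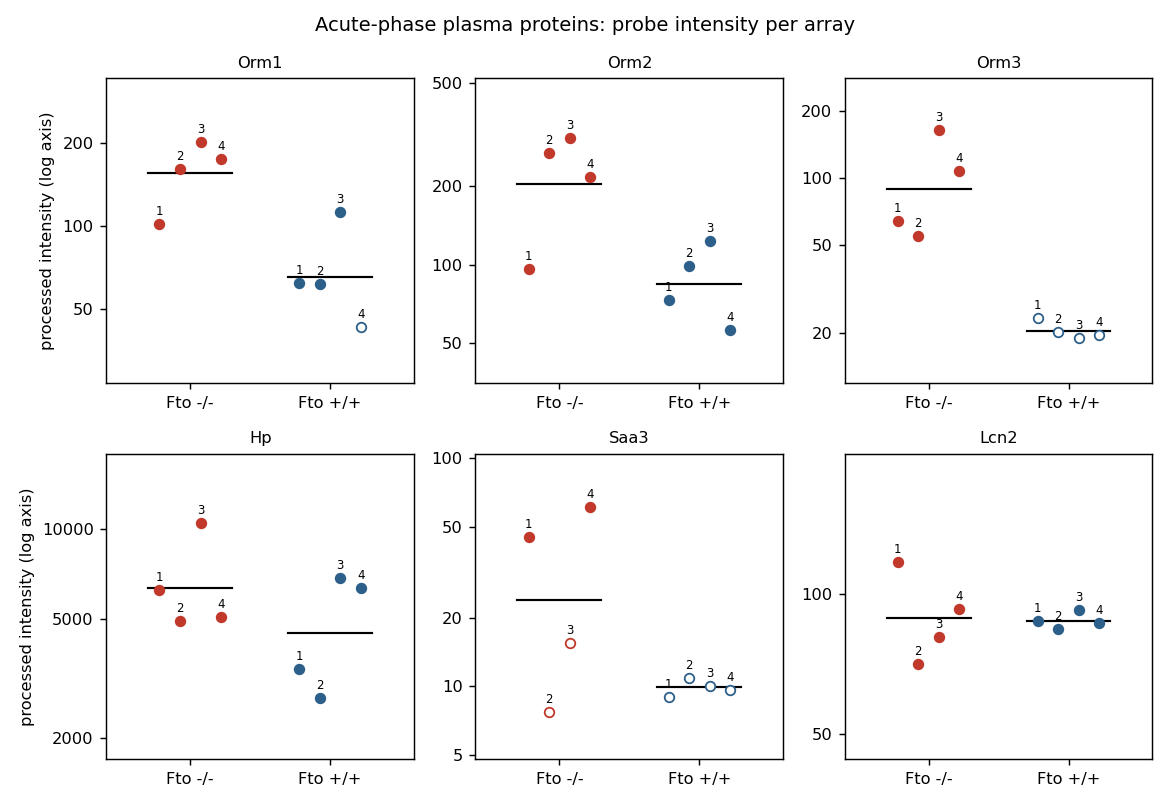
Processed intensity (units, log axis) of the Orm1, Orm2, Orm3, Hp, Saa3 and Lcn2 probes on each array, Fto -/- in red and Fto +/+ in blue, with the replicate number above each point and a bar at the geometric mean of 4 arrays. Open points are arrays not well above background: Orm3 has 4 filled points in Fto -/- and 4 open ones in Fto +/+, whereas Lcn2 and Hp overlap between genotypes.

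Itih4 was read by 2 probes of the same transcript (NM_018746), both well above background on every array, and was lower in Fto -/- by both. The brighter probe read 6456, 10377, 7777 and 8273 units in Fto -/- replicates 1 to 4, against 23663, 21036, 18469 and 23199 units in Fto +/+. The highest Fto -/- array thus lay well under the lowest Fto +/+ array. Levels were 4.62 ± 0.38 in Fto -/- and 5.85 ± 0.27 in Fto +/+ (SD, n = 4 each), which is 2.36-fold lower, a difference of -1.24 ± 0.21 (SE).

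The dimmer Itih4 probe read 405, 642, 581 and 525 units in Fto -/- replicates 1 to 4, against 1817, 1777, 1303 and 1565 units in Fto +/+. Again no Fto -/- array reached an Fto +/+ array. Levels were 0.69 ± 0.42 in Fto -/- and 2.11 ± 0.24 in Fto +/+ (SD, n = 4 each), which is 2.68-fold lower, a difference of -1.42 ± 0.21 (SE). For both probes Fto -/- replicate 1 was the dimmest and replicate 2 the brightest of its genotype, and Fto +/+ replicate 3 was the dimmest of its own, both in units and as a level. Since both probes read the same RNA on the same arrays, they are not independent measurements of the genotypes.

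Itih5, a heavy chain expressed in adipose tissue and in many tissues outside the liver, was higher in Fto -/-. Its probe (NM_172471) read 545, 408, 499 and 478 units in Fto -/- replicates 1 to 4, against 332, 311, 292 and 143 units in Fto +/+. The genotypes did not overlap, and Fto +/+ replicate 4 stood below the rest of its group. Levels were 0.54 ± 0.17 in Fto -/- and -0.54 ± 0.43 in Fto +/+ (SD, n = 4 each), a 2.11-fold higher mean and a difference of 1.08 ± 0.21 (SE).

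Itih2 (NM_010582), a heavy chain of the classical inhibitor, read 706, 597, 563 and 678 units in Fto -/- replicates 1 to 4, against 806, 849, 771 and 737 units in Fto +/+. Every Fto -/- array was lower than every Fto +/+ array. As levels the genotypes all but met, at 1.0132 in Fto -/- replicate 4 and 1.0145 in Fto +/+ replicate 3. The mean levels were 0.94 ± 0.05 in Fto -/- and 1.09 ± 0.09 in Fto +/+ (SD, n = 4 each). This small difference of -0.15 ± 0.09 (SE) missed the threshold. Itih3 (NM_008407), the heavy chain of pre-alpha-inhibitor, read 618, 685, 633 and 655 units in Fto -/- replicates 1 to 4, against 531, 639, 507 and 583 units in Fto +/+. The genotypes overlapped, and the difference of 0.37 ± 0.13 (SE) missed the threshold. The adjacent pair Itih4 and Itih3 thus had differences of opposite sign, as did the adjacent pair Itih2 and Itih5.

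**Figure D2:**
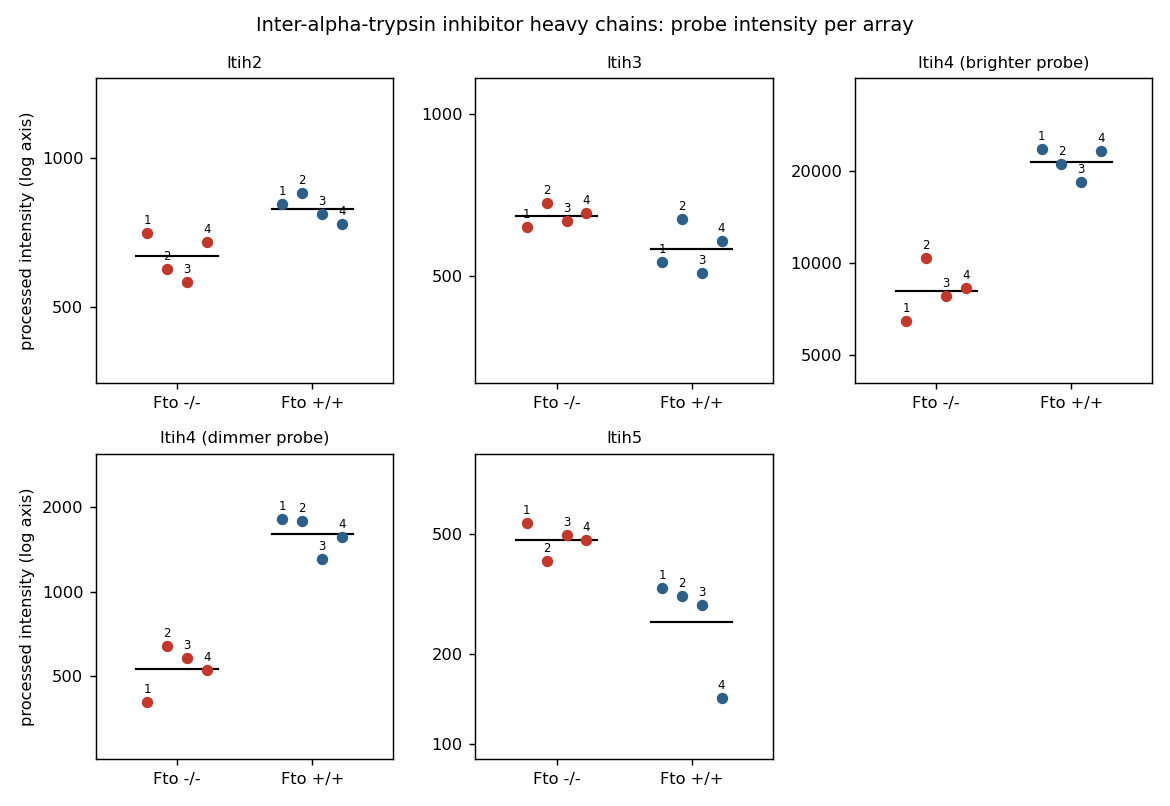
Processed intensity (units, log axis) of the Itih2, Itih3, Itih4 and Itih5 probes on each array, Fto -/- in red and Fto +/+ in blue, with the replicate number above each point and a bar at the geometric mean of 4 arrays. Both Itih4 probes are separated by genotype with Fto -/- lower, Itih5 is separated with Fto -/- higher, and Itih3 overlaps.

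Hp encodes haptoglobin, which binds free haemoglobin. Its probe (NM_017370) read 6261, 4932, 10506 and 5096 units in Fto -/- replicates 1 to 4, against 3400.4, 2732, 6890 and 6383 units in Fto +/+. In units replicate 3 was the brightest array of each genotype, while as a level Fto +/+ replicate 4 was above replicate 3. Levels of 4.27 ± 0.59 in Fto -/- and 3.60 ± 0.77 in Fto +/+ (SD, n = 4 each) overlapped, and the difference of 0.68 ± 0.41 (SE) missed the threshold.

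Lcn2 encodes lipocalin 2, which withholds iron from bacteria by binding their siderophores and is a target of NF-kappa-B signalling. Its probe (NM_008491) read 117, 70.7, 80.6 and 92.8 units in Fto -/- replicates 1 to 4, against 87.2, 84.0, 92.3 and 86.7 units in Fto +/+. In units the Fto +/+ range lay inside the Fto -/- range. As levels the genotypes overlapped too, with Fto +/+ replicate 2 the lowest array at -2.31. The difference was 0.19 ± 0.14 (SE).

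Saa3 encodes a serum amyloid A protein made outside the liver, including by adipocytes and macrophages. Its probe (NM_011315) read 45.1, 7.72, 15.4 and 61.0 units in Fto -/- replicates 1 to 4, against 9.03, 10.9, 10.1 and 9.69 units in Fto +/+. It was well above background on Fto -/- replicates 1 and 4 and on 0 of 4 Fto +/+ arrays, so it was not tested and no fold is given.

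Whether these members passed the threshold changed when single arrays were left out or the slide row was added as a block. Such fits also have less data from which to estimate the spread. The part of this in the lost calls was not tested. Fto -/- replicates 1 to 3 and Fto +/+ replicate 1 shared the first row of the slide, and Fto -/- replicate 4 and Fto +/+ replicates 2 to 4 the second row. With the row as a block the differences were 2.31 for Orm3, -1.28 and -1.49 for the brighter and dimmer Itih4 probes and 0.95 for Itih5, and none of them passed the threshold. Within the first and the second row they were 2.02 and 2.60 for Orm3, -1.36 and -1.19 for the brighter Itih4 probe, -1.58 and -1.41 for the dimmer one, and 0.73 and 1.17 for Itih5, each row holding 1 array of one genotype. When each array was left out in turn, Orm3 missed the threshold without Fto -/- replicate 4 or any of Fto +/+ replicates 1 to 3, with differences from 1.94 to 2.51 over the 8 fits. The brighter Itih4 probe passed only without Fto -/- replicate 2 or Fto +/+ replicate 4 (differences from -1.37 to -1.07), and the dimmer one missed without Fto -/- replicate 4 or Fto +/+ replicates 1 or 2 (from -1.54 to -1.23). Itih5 passed in only 1 of these fits, without Fto +/+ replicate 4 (from 0.87 to 1.2). No difference of these 4 probes changed sign in any of them.

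An alternative that changed several choices at once, normexp correction of the median spot signal with an offset of 50 followed by quantile normalisation, gave an Orm3 difference of 0.72 in place of 2.29, and Orm3 missed the threshold. It gave 0.74 for Orm1 and 0.93 for Orm2, -1.15 and -1.26 for the brighter and dimmer Itih4 probes and 0.83 for Itih5, so that Orm3 was then the smallest of these in size. The Itih4 probes and Itih5 stayed past the threshold. Quantile normalisation alone gave 2.23 for Orm3, and the parts of the offset, the correction and the median signal were not tested one by one.

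**Figure D3:**
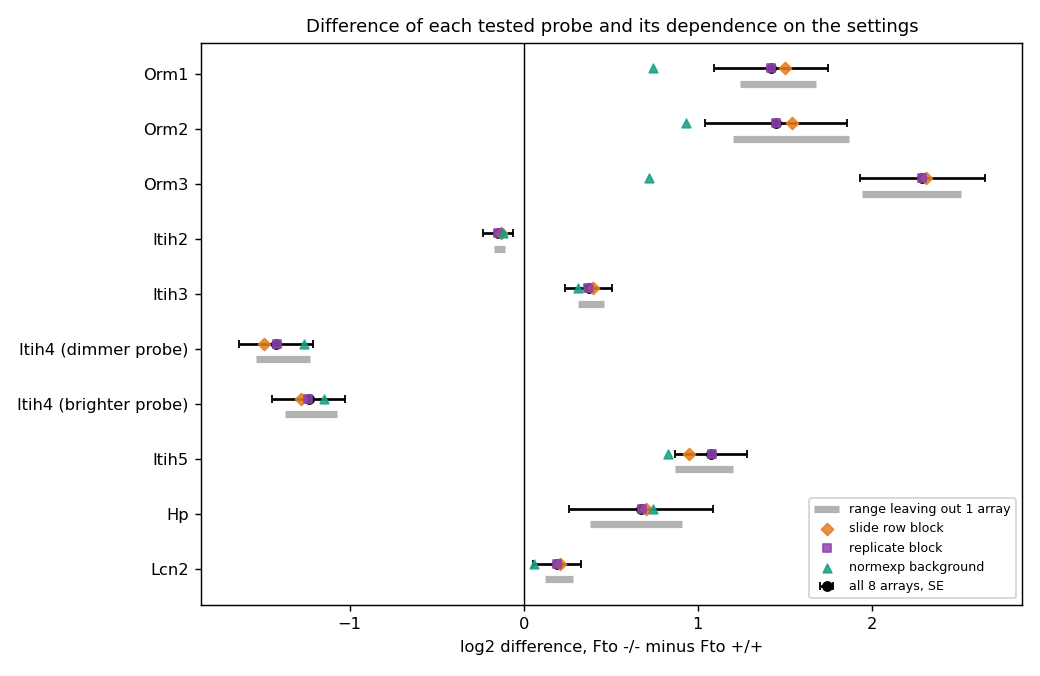
Log2 difference (Fto -/- minus Fto +/+) of each tested member probe: black points with SE from all 8 arrays, a grey bar for the range when each array is left out, and coloured marks for the slide row block, the replicate block and normexp background correction. Orm3 stands at 2.29 and at 0.72 with normexp (offset 50, median spot signal), and every mark of both Itih4 probes is below 0.

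Markers of other cell types that the vessel preparation could hold were read beside these genes. In bulk tissue, fewer cells of a type and less RNA per cell cannot be told apart. The summed level of a list is the sum of its intensities divided by the array's 75th percentile. The 10 brown adipocyte markers summed to 156, 93.2, 478 and 334 in Fto -/- replicates 1 to 4, against 49.4, 33.8, 97.9 and 88.2 in Fto +/+. The lowest Fto -/- array lay within the Fto +/+ range. Replicates 3 and 4 were again the high arrays of Fto -/-, as for Orm3. They were so too for the white adipocyte, hepatocyte, and thymocyte and T cell sums, while Orm2 was brightest in replicates 3 and 2. Of the brown adipocyte markers, 9 had a higher mean in Fto -/-, beside 43.8% of all named genes tested. Ucp1, the uncoupling protein of brown fat, lay between 5058 and 33471 units in Fto -/- and between 763 and 7097 units in Fto +/+. Its difference of 2.90 ± 0.94 (SE) had a limma adjusted p of 0.153. Cidea, a lipid droplet protein, differed by 1.88 ± 0.47 (SE) with a limma adjusted p of 0.0883.

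The sums of the white adipocyte markers overlapped between genotypes. The 10 of them came to 278, 330, 645 and 439 in Fto -/- replicates 1 to 4, against 275, 180, 572 and 408 in Fto +/+. Adipoq, the gene of adiponectin, was well above background on every array and Lep, the gene of leptin, on none. Both Fto +/+ arrays with the highest white and brown adipocyte sums, replicates 3 and 4, were also those with the highest Hp, and replicate 3 was the highest of Fto -/- for all of these. The part of fat markers in the differences of the members was not tested.

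Of 12 hepatocyte markers, 6 were above background on every array. Apoa1, Hnf4a and F2 were so on no array, and Alb, the gene of albumin, on 0 of 4 Fto -/- and 1 of 4 Fto +/+ arrays. The sums of the 12 were 18.1 to 35.9 in Fto -/- and 12.9 to 42.6 in Fto +/+. Cyp2e1 had the highest mean level among them in both genotypes. It read 2444.5 to 8375 units in Fto -/- and 602 to 12384 units in Fto +/+. The sums therefore say nothing of the markers near background. Neutrophil markers S100a8, Ngp, Cxcr2 and Retnlg were above background on no array. The sums of all 10 neutrophil markers, at 151 to 206 in Fto -/- and 149 to 191 in Fto +/+, were carried by the single gene Csf3r and say nothing of the other markers. The 12 macrophage markers summed to 127 to 172 in Fto -/- and 100.4 to 125 in Fto +/+, ranges that just failed to overlap. Itgam had the highest mean level among them in both genotypes. A higher mean in Fto -/- was found for 11 of the 12 macrophage markers, beside 43.8% of all named genes tested. So it was for 12 of 13 thymocyte and T cell, 8 of 10 white adipocyte and 7 of 8 fibroblast markers. Lower shares were 4 of 8 smooth muscle, 2 of 8 endothelial and 1 of 7 mesothelial markers. The same held for 4 of 12 hepatocyte, 5 of 10 neutrophil and 2 of 8 skeletal muscle markers. Markers too dim to be tested are included in these counts. The 8 skeletal muscle markers, of which 2 were above background on every array, summed to 22.9, 16.5, 20.4 and 21.5 in Fto -/- replicates 1 to 4. Against these stood 34.8, 22.8, 41.6 and 29.2 in Fto +/+, so the ranges just overlapped. The array with the highest sum, replicate 1 of Fto -/- and replicate 3 of Fto +/+, had the lowest Itih4 of its genotype by both probes. The part of these markers in the Itih4 difference was not tested. Acta1, skeletal actin, carried most of these sums and differed by -0.53 ± 0.15 (SE, limma adjusted p = 0.123). Endothelial markers, 8 in number, summed to 98.9 to 142 in Fto -/- and 107 to 151 in Fto +/+. The 7 mesothelial markers summed to 0.240 to 0.591 in Fto -/- and 0.348 to 1.17 in Fto +/+. Of these 7, 0 were above background on every array and 4 were so on no array. The 8 fibroblast markers summed to 1311 to 1412 in Fto -/- and 1024 to 1381 in Fto +/+. Thymocyte and T cell markers, 13 in all, summed to 13.3, 6.07, 20.6 and 14.0 in Fto -/- replicates 1 to 4, against 6.2, 15.1, 7.10 and 8.5 in Fto +/+. Rag1, a recombinase gene of developing lymphocytes, was above background on Fto -/- replicates 1, 3 and 4 and on Fto +/+ replicate 2. Without those 4 arrays, which leaves 1 Fto -/- against 3 Fto +/+ arrays, the differences were 1.62 for Orm3, -0.77 and -1.02 for the Itih4 probes and 0.63 for Itih5. Of all marker lists, 0 genes passed the threshold, beside 1.8% of all named genes tested. Many of the listed markers, Alb among them, were too dim to be tested.

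**Figure D4:**
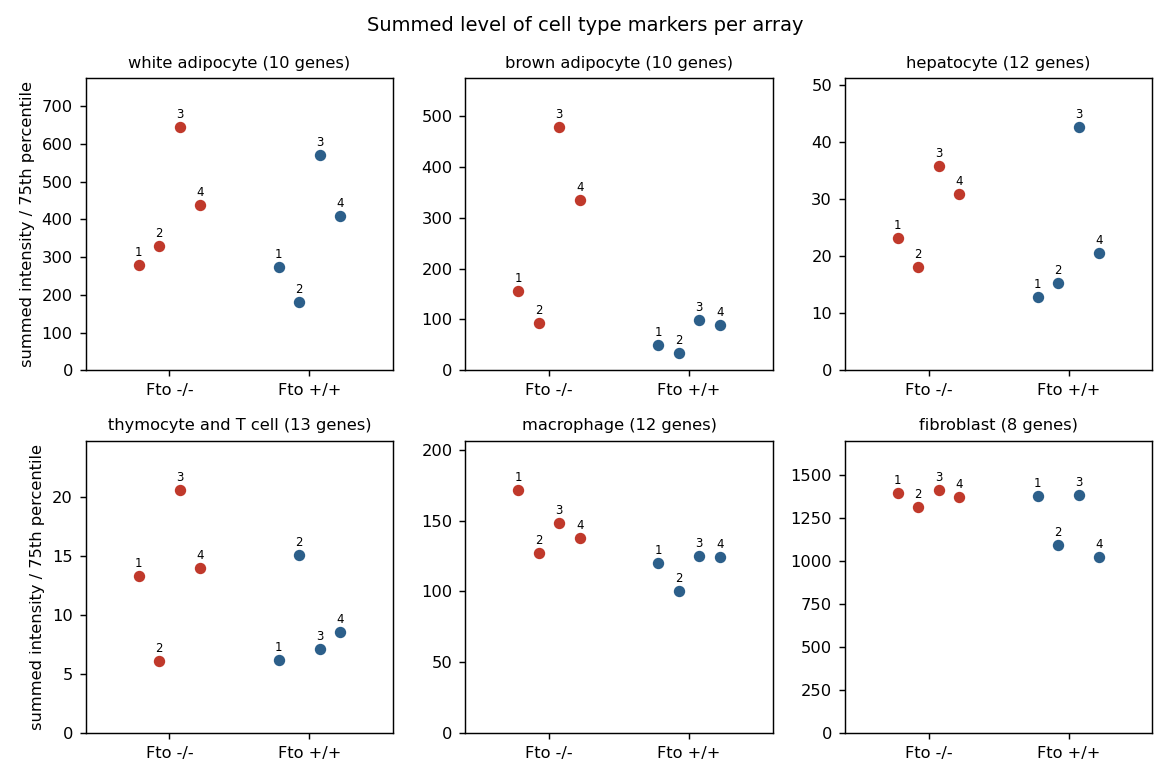
Summed level (intensity over the array's 75th percentile, linear axes from 0) of 6 marker lists on each array, Fto -/- in red and Fto +/+ in blue, with the replicate number above each point. Brown adipocyte sums are highest in Fto -/- replicates 3 and 4, at 478 and 334. Hepatocyte sums, in which Cyp2e1 has the highest mean level, overlap between genotypes.

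The rest of the acute-phase programme was read from lists of other genes. These lists were chosen with earlier results of these data known, so their calls and p-values are a description. Of 28 further liver-type acute-phase genes, 27 were on the array and 14 tested, of which 1 was higher and 0 lower past the threshold, against 1.8% of all 13053 named genes tested. The gene was C4b, a complement protein that is cleaved to tag surfaces. It read 12590.3, 8688, 7025 and 11360.2 units in Fto -/- replicates 1 to 4, against 7257, 6581, 7121 and 5598 units in Fto +/+. Its levels of 4.87 ± 0.25 in Fto -/- and 4.15 ± 0.13 in Fto +/+ (SD, n = 4 each) differed by 0.72 ± 0.14 (SE), with a limma adjusted p of 0.0453. C4b passed in 0 of the 8 fits that left out 1 array. With the replicate block its adjusted p was 0.092 and with the row as a block 0.155. C4b has a near-identical copy, C4a, so its reading is uncertain as to gene.

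The other members of that list missed the threshold, with a median difference of 0.43 over the 14, against -0.04 over all named genes. Unadjusted p-values under 0.05 numbered 5 of 14, and 20.7% of all named genes had one. Of the 14, 12 had a positive difference, beside 43.8% of all named genes tested. Mt2, a metal-binding metallothionein, was at 1.14 ± 0.41 (SE, limma adjusted p = 0.192), Cfb, complement factor B, at 0.72 ± 0.23 (SE, limma adjusted p = 0.152) and C3, the central complement protein, at 0.57 ± 0.18 (SE, limma adjusted p = 0.142). Genotypes did not overlap for Mt2 and Cfb and overlapped for C3. Like Hp, Mt2 lies on chromosome 8, as does Fto, and any part of this in its difference was not tested. Saa1, a liver serum amyloid, was at 0.04, and Serpina3n, a protease inhibitor of the acute phase, at -0.09. The classical liver genes Crp, Saa2, Fga, Hamp and A2m were above background on no array, as was Itih1, the heavy chain next to Itih3.

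Signalling genes upstream of the acute phase gave 0 calls among 26 tested of 36, with limma, and 3 of them had an unadjusted p under 0.05. For these and the lists that follow, the shares over all named genes are again 1.8% called and 20.7% with such a p. The cytokine genes Il6, Il1b, Tnf and Osm were above background on no array. Il1rap, a co-receptor of interleukin-1, differed by 0.72 ± 0.18 (SE, limma adjusted p = 0.093), and Osmr, the oncostatin M receptor, by 0.38 ± 0.10 (SE, limma adjusted p = 0.105). Stat3, the factor downstream of interleukin-6, was at 0.06 and its feedback inhibitor Socs3 at -0.09. The list's median was 0.04.

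Genes of the hyaluronan matrix, to which the heavy chains are linked, gave 0 calls among 13 tested of 21, with limma, and 0 of them had an unadjusted p under 0.05. Their median difference was 0.14. The hyaluronidase Hyal1 was at -0.26 ± 0.14 (SE, limma adjusted p = 0.358) and the link protein Hapln1 at 0.50 ± 0.28 (SE, limma adjusted p = 0.378). Tnfaip6, whose product transfers heavy chains to hyaluronan, was at 0.29. Ambp, which encodes bikunin, was above background on 0 of 4 Fto -/- and 1 of 4 Fto +/+ arrays.

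Other lipocalins, the family of the orosomucoids and Lcn2, gave 1 higher and 0 lower call among 6 tested of 14. Because this list too was chosen with earlier results known, the call is a description. Ptgds, the lipocalin-type prostaglandin D synthase, read 183, 254, 189 and 153 units in Fto -/- replicates 1 to 4, against 55.8, 62.2, 54.1 and 27.1 units in Fto +/+. The genotypes did not overlap, and Fto +/+ replicate 4 was the array not well above background. The difference was 2.18 ± 0.24 (SE), with a limma adjusted p of 0.00843, and it passed in 8 of the 8 fits that left out 1 array. It was 1.99 with the row as a block (adjusted p = 0.0451) and 1.19 with normexp. Receptors and clearance genes, such as those that take up haemoglobin complexes or serum amyloid, gave 0 calls among 7 tested of 12, with limma, and 2 had an unadjusted p under 0.05. Of these the lipoprotein receptor Scarb1 was at 0.46 ± 0.10 (SE, limma adjusted p = 0.0569) and Tlr4, the receptor of endotoxin, at -0.43 ± 0.11 (SE, limma adjusted p = 0.0926). With each gene once, the lists held 66 tested genes, of which 2 were higher and 0 lower past the threshold and 12 had an unadjusted p under 0.05, beside 1.8% and 20.7% of all named genes.

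**Figure D5:**
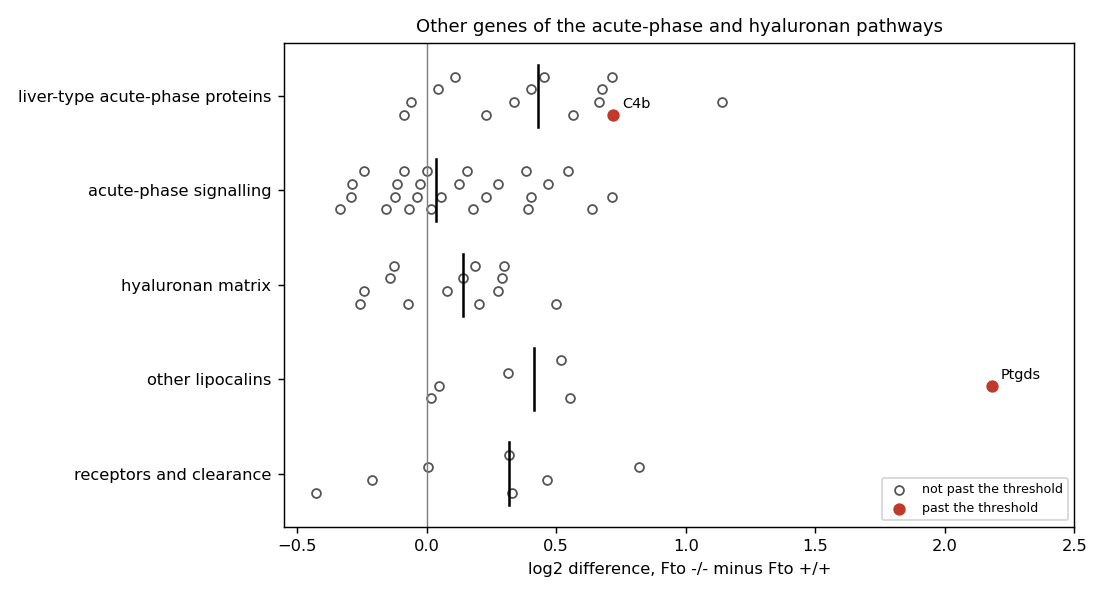
Log2 difference (Fto -/- minus Fto +/+) of each tested gene in 5 lists of other acute-phase, hyaluronan, lipocalin and receptor genes, 1 point a gene, with a bar at each list's median. Of 66 genes 2 are filled as past the threshold, C4b at 0.72 and Ptgds at 2.18.

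Over the 8 arrays the named genes whose levels followed Orm3 most closely were Reep6 (Pearson's r 0.980), Stk33 (0.980) and Cdh2 (0.966), and for the brighter Itih4 probe Traf5 (0.984), Sema3f (0.973) and Fzd2 (0.963), out of 12482 candidates. These are descriptions over arrays that share their genotypes and slide, and for Orm3 the 4 Fto +/+ values that enter them are not well above background.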

How the data were processed

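Thoracic aorta RNA of 4 Fto -/- and 4 Fto +/+ samples was read on 1-colour Agilent arrays. The deposited scanner files hold spot intensity made with Feature Extraction 11.0.1.1 on an mm9 annotation. Per the file headers, background was subtracted and arrays were not scaled to each other. The deposited series table holds the authors' log2 values of the same arrays. From the values, each probe there was centred on its median, and the columns followed the centred scanner log2 values with slopes of 0.958 to 1.006 and correlations of 0.983 to 0.997. Their column medians lay between -0.0095 and 0.0049.

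Control spots (3671 per array) were dropped, outlier spots (126 to 189 per array) were set to missing, and spots of a probe were averaged. Each intensity was divided by its array's 75th percentile over non-control spots and put on a log2 scale. The 25292 probes well above background on at least 4 arrays were fitted with limma 3.58.1 (lmFit, eBayes) in R 4.3.3, with Benjamini-Hochberg adjustment over all of them at 0.05. A gene stood for its tested probe of highest mean. RefSeq names (GRCm38.p6) were found for 50.9% of probes. The fit was tested on simulated data. The number of arrays limits the precision, and p-values measure the spread between samples that may not be separate animals. The same slide and scan date held all 8 arrays.

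Members, lists and alternatives were chosen with earlier results of these data known. Genes named were all members, Fto, list members past the threshold (up to 4 a direction, or else the 2 of smallest p), the 3 genes most like Orm3 and Itih4, and markers whose sums moved with a member. Mt2, Cfb, C3, Saa1, Serpina3n, Stat3, Socs3, Tnfaip6, Xist, the Y-linked genes and those named for being undetected fall outside that rule and were chosen after their values were seen. The normexp alternative (offset 50, then quantile normalisation) used the median spot signal, because the files hold no mean signal. Same-numbered samples deviated together with correlations of 0.15, -0.02, -0.02 and -0.04, so replicate numbers were not treated as pairs.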

Additional observations from a re-analysis of the deposited data

Results flagged for a closer look

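Of 40 groups of 4 samples examined, 2 held a sample whose gap to its nearest neighbour, as a share of the group's range, was above Dixon's 95% critical value for 4 samples. Chance gives about 1 in 20 such groups. Hp in Fto -/- replicate 3 stood above the other Fto -/- arrays with a gap share of 0.886, at 10506 units. Ptgds in Fto +/+ replicate 4 stood below the other Fto +/+ arrays with a gap share of 0.904, at 27.1 units.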

How the results depend on the processing

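Every alternative kept the sign of each tested member's difference except Lcn2, at -0.10 without the 4 arrays with Rag1 above background (an alternative chosen after seeing the data). Its cause was not tested. Member probes past the threshold (2 higher and 2 lower) became 1 higher with quantile normalisation, with normexp, with the series table and with probes above background on all arrays, each with 2 lower. They became 0 higher and 0 lower with every probe tested, with the replicate block, with the slide row block, within the first row, within the second row and without the Rag1 arrays. The replicate block gave differences of 2.29 for Orm3, -1.24 and -1.42 for Itih4 and 1.08 for Itih5, and Ptgds stayed past the threshold. Leaving out 1 array in turn gave 0 to 2 higher and 0 to 2 lower member probes. Probes past the threshold over the array (213 higher, 206 lower) became 61 and 35 with every probe tested, 90 and 42 with the replicate block, 33 and 13 with the slide row block, 0 and 0 within the first row, 1 and 0 within the second row and 0 and 0 without the Rag1 arrays. They ranged over 55 to 499 higher and 46 to 387 lower when 1 array was left out, the most without Fto +/+ replicate 4. Pathway genes past the threshold (2 higher, 0 lower) became 1 higher with every probe tested, with the replicate block, with the slide row block and in each fit that left out 1 array, and 0 higher within each row and without the Rag1 arrays. Within a row or without the Rag1 arrays 1 genotype has 1 array, whose spread is assumed to be that of the others. Orm3 in Fto +/+ and Saa3 in both genotypes were limited by signal near background. Orm1, Orm3 and Ptgds have no value where a probe must be above background on all arrays.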
